A study of Mus musculus with 15 samples.

Results

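The IL-1 family and inflammasome genes described here are Il1a, Il1b, Il18, Il1rn, Il1rap and Casp1. They were chosen by gene symbol from a list of 8 names, of which 6 had a row among the 561 genes of the panel values, and Nlrp3 and Pycard were not analysed here. Each gene was followed across all 15 samples. The samples were RAW macrophages, an established mouse cell line, given lipopolysaccharide (LPS, 1 µg/ml) together with plasma extracellular vesicles (EVs) for 24 hours. The EVs came from female C57BL/6J mice aged 6 to 8 weeks that had received sham treatment, or from such mice collected 3 or 7 days after whole-body ionizing radiation (WBIR) at 2 or 9 Gy. The 5 groups were therefore sham EVs, 2 Gy day 3 EVs, 2 Gy day 7 EVs, 9 Gy day 3 EVs and 9 Gy day 7 EVs, with 3 samples each. LPS and the presence of mouse plasma EVs were common to every group, so no sample shows the cells without LPS or without EVs. The labels give 30000000 EVs per exposure and the methods of the study 10000000. The methods state that samples were run in triplicate. Neither source says whether the 3 samples of a group were separate cultures, separate EV donors or repeat runs, so the p-values measure only the spread between these samples, which may be technical.

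IL-1α and IL-1β, encoded by Il1a and Il1b, are proinflammatory cytokines that signal through the same receptor, and LPS acting on Toll-like receptor 4 is a classical inducer of both genes in macrophages. The product of Il1rn, the IL-1 receptor antagonist, occupies that receptor without starting a signal, and Il1rap encodes the accessory chain that the receptor needs to signal. Pro-IL-1β and pro-IL-18 are cut into their mature forms by caspase-1, the product of Casp1, inside the inflammasome, a complex assembled from a sensor such as NLRP3 and the adaptor ASC. RAW macrophages are known to lack ASC, so mRNA levels in this line speak of the transcripts and not of secreted mature cytokine.

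Il1a and Il1b lie near each other on mouse chromosome 2, and Il1rn lies far from them on the same chromosome. In the RefSeq annotation of GRCm38.p6, which matched 6 of 6 symbols, Il1a lies at chr2:129299609-129310186, Il1b at chr2:129364569-129371164 and Il1rn at chr2:24336860-24351491. Casp1 at chr9:5298517-5307281 and Il18 at chr9:50554700-50581841 share chromosome 9, and Il1rap lies at chr16:26581509-26730128. The sequences before the start sites of Il1b, Il1rn and Casp1 are shown because these genes differed in the size of their log2 fold change under 9 Gy EVs. From the lowest of 269 genes tested, Il1b ranked 2 at day 3 and 4 at day 7. Il1rn ranked 14 and 8, and Casp1 118 and 148. The sequences are printed 5′ to 3′ as far as they lie outside the annotated gene, with matches to the searched motifs in capitals.
Il1b, chr2:129371165-129371389, minus strand: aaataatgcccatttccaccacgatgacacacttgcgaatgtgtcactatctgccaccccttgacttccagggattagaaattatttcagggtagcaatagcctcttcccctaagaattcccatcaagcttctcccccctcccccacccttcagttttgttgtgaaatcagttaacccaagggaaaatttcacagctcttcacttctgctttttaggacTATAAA
Il1rn, chr2:24336610-24336859, plus strand: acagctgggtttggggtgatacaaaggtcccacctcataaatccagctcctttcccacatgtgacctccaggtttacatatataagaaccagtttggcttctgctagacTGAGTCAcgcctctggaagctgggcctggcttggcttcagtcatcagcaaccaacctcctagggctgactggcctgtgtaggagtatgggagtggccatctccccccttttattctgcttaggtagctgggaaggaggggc
Casp1, chr9:5298267-5298516, plus strand: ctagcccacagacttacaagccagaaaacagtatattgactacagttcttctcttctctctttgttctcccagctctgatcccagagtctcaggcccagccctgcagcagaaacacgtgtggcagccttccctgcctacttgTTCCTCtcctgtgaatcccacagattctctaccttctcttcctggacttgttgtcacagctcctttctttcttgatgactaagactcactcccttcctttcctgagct

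The motifs were searched on both strands of the 250 bases before each start site. In Il1b, TATAAA stood with its nearest base 26 bases before the start site, and 12.4% of all 32851 mouse windows of that length held TATAAA. RefSeq gives 3 start sites for Il1rn. The window of the first, printed above, had 1 match to the AP-1 motif TGANTCA with its nearest base 135 bases before that start site, a motif found in 6.75% of windows, and the windows of the other two had no match to any motif searched. Casp1 had 1 match to the PU.1 core GAGGAA on the opposite strand, found in 23.3% of windows. Il1a, not printed, had TATAAA, AP-1 and PU.1 matches with nearest bases 27, 6 and 36 bases before its start site. Il18 had TATAAA at 170 bases, and Il1rap had no match. Any link between motifs and the size of a change was not tested. The C/EBP core TTGCNNAA (9.56% of windows) and the NF-κB consensus (7.25% of windows) had no match in the windows of these genes, which says only that those letters are not in them. The motifs do not overlap each other in the printed sequences.

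Gene expression was measured as digital counts of color-coded probes on the nanoString nCounter Mouse Immunology Panel, which reads mRNA without amplification. Total counts were 43176 to 87899 in the 9 Gy day 3 group and 453178 to 837995 in the other groups, so the 9 Gy day 3 values carry the largest counting error. In such bulk samples fewer cells and less RNA per cell cannot be told apart. The methods of the study state a single amount of mRNA for hybridization, and why the total counts differed was not tested. Levels are given as scaled counts, that is, counts divided by a sample factor from 14 housekeeping genes, and a gene is called changed where edgeR's quasi-likelihood test gave an adjusted p below 0.05 over the 269 genes tested. The titles place 3 samples at 9 Gy day 3, but for replicates 1 and 2 of that group a separate label gives day 7. The titles were followed. Summed scaled counts of 10 macrophage markers, all tested, ranged from 5330 to 8690 in the sham group, from 5420 to 7480 in the 2 Gy groups and from 2850 to 4560 in the 9 Gy groups. Cd14 made up 40.8% of the sham sum. The markers did not move together: at each 9 Gy day 5 of 10 were called lower (Cd14, Emr1, Fcgr1, Itgam and Msr1) and Csf1r was called higher (log2 fold changes of 2.29 and 1.87), while Tlr2 had 0.59 and 0.55 and was not called. Of all genes tested, 41.3% and 49.1% were called lower and 11.2% and 11.9% higher at day 3 and day 7. With TMM scaling Cd14 was not called and Tlr2 was called higher at both days. The part of the markers in the changes below was not tested. T cell markers other than Cd8a and Lck were at 16 counts or fewer in every sample.

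Exposure to EVs from mice given 9 Gy of WBIR was accompanied by far lower mRNA of both IL-1 cytokines and of the IL-1 receptor antagonist. Against sham EVs the log2 fold changes at day 3 and day 7 were -4.47 and -4.64 for Il1a, -4.53 and -4.52 for Il1b and -2.35 and -2.80 for Il1rn. Il18 and Casp1 differed less, and Il1rap was not lower. With 2 Gy EVs none of these genes was called changed. At 9 Gy day 3, 4 of the 6 genes were called lower, against 41.3% of all genes tested, and 0 were called higher, against 11.2%. At 9 Gy day 7, 4 of 6 were called lower, against 49.1% of all genes tested, and 0 higher, against 11.9%. These shares rest on the scaling. Over all genes 111 were lower and 30 higher at day 3, but 60 and 59 with TMM scaling and 33 and 121 with total counts, and at day 7 132 and 32, 76 and 75, and 31 and 143. With TMM scaling 3 of the 6 genes (Il1a, Il1b and Il1rn) were called lower and 1 (Il1rap) higher at each day. Their median log2 fold change was -1.56 at day 3 and -1.92 at day 7, beside -0.46 and -0.45 over all genes tested. These shares are close to or somewhat above the background, and the size of the change set Il1a and Il1b apart more than the count did. Ranked from the lowest log2 fold change of 269, Il1b was 2 and Il1a 3 at day 3, and Il1a was 2 and Il1b 4 at day 7. Both comparisons share the same sham samples.

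**Figure D1:**
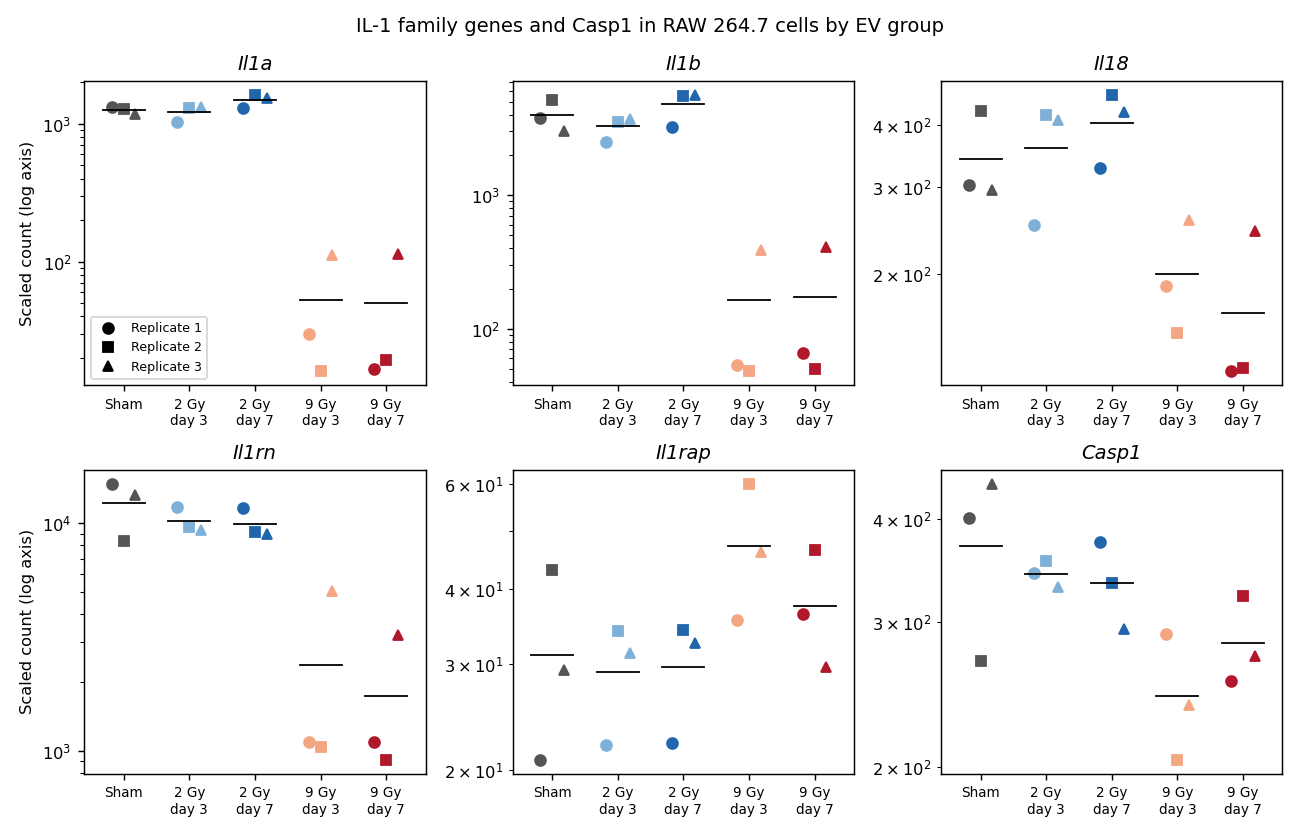
Scaled counts of 6 genes (log axis, panels with different ranges) in each of the 15 samples by EV group, where symbols mark the replicate number and lines the mean of 3 samples. Il1a, Il1b and Il1rn lay lower in all 6 samples with 9 Gy EVs than in any other sample, and replicate 3 was the highest of its 9 Gy group for each of them. How many of all genes tested separated in this way was not counted.

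Il1a encodes IL-1α, which is active without cleavage by caspase-1. Its scaled counts were 1323, 1274 and 1169 in the sham group, 1025, 1300 and 1311 in the 2 Gy day 3 group and 1306, 1617 and 1530 in the 2 Gy day 7 group. With 9 Gy EVs they were 29.6, 16.0 and 112 at day 3 and 16.7, 19.5 and 114 at day 7. The highest 9 Gy value, 114, lay far below the lowest of the other samples, 1025, and replicate 3 was the highest of each 9 Gy group. Against sham EVs, the log2 fold change was -4.47 ± 0.71 (SE, edgeR adjusted p = 0.000158) at day 3. It was -4.64 ± 0.64 (edgeR adjusted p = 4.19e-05) at day 7, a 24.9-fold lower level. Under 5 other scalings the day 3 value ranged from -4.29 to -3.49 and the day 7 value from -4.48 to -3.66, the smallest with total counts. The raw counts behind the day 3 values were 5, 4 and 34, with exact Poisson 95% intervals of 1.62 to 11.7, 1.09 to 10.2 and 23.5 to 47.5 that cover counting error only. The first 2 were not shown to be above background. The size of the day 3 log2 fold change and its rank among all genes are therefore uncertain, and no linear fold is printed for day 3. Without replicate 3 of the day 3 group the Il1a change there was -5.85, which rests on the counts of 5 and 4 alone and is uncertain in size. Without replicate 3 of the day 7 group it was -6.11 at day 7.

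Il1b encodes IL-1β, a main substrate of caspase-1. Scaled counts were 3782, 5139 and 3041 in the sham group, 2522, 3560 and 3745 in the 2 Gy day 3 group and 3214, 5565 and 5642 in the 2 Gy day 7 group. With 9 Gy EVs they were 53.3, 48.0 and 390 at day 3 and 65.4, 49.7 and 406 at day 7. Again no 9 Gy sample overlapped any other sample, and replicate 3 of each day stood well above replicates 1 and 2. The log2 fold change against sham EVs was -4.53 ± 0.86 (SE, edgeR adjusted p = 0.000643) at day 3. It was -4.52 ± 0.83 (edgeR adjusted p = 0.000368) at day 7, a 22.9-fold lower level. With total counts the values were smaller, at -3.57 and -3.54. Raw counts of Il1b in the 9 Gy day 3 samples were 9, 12 and 118. Leaving out replicate 3 of the day 3 group moved the day 3 change to -6.31, which rests on the counts of 9 and 12 alone. Leaving out replicate 3 of the day 7 group moved the day 7 change to -6.11.

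Il18 encodes IL-18, a further caspase-1 substrate that acts through its own receptor. Its scaled counts were 303, 427 and 296 in the sham group, 252, 419 and 411 in the 2 Gy day 3 group and 327, 461 and 426 in the 2 Gy day 7 group. With 9 Gy EVs they were 190, 152 and 258 at day 3 and 127, 130 and 244 at day 7. The 9 Gy samples lay below all sham samples, but the highest of them, replicate 3 of day 3, exceeded replicate 1 of 2 Gy day 3. The log2 fold change against sham EVs was -0.77 ± 0.31 (SE) at day 3, which was not called (edgeR adjusted p = 0.0511). It was called when replicate 3 of that group was left out (-1.01, adjusted p = 0.0333), and also without any 1 sample of the 9 Gy day 7 group or without replicate 1 of 2 Gy day 3 (adjusted p = 0.023 to 0.0492). It was called as well with the replicate block over all groups (-0.80, adjusted p = 0.0227), with DESeq2 (adjusted p = 0.0236) and with limma (adjusted p = 0.037). At day 7 it was -1.03 ± 0.29 (edgeR adjusted p = 0.00697), a 2.05-fold lower level. The Il18 values rested on the scaling. With TMM scaling they were -0.30 at day 3 (adjusted p = 0.406) and -0.56 at day 7 (adjusted p = 0.0836), and with total counts 0.25 and 0.0352.

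Il1rn encodes the IL-1 receptor antagonist and gave the highest counts of the genes described here, although levels of different probes cannot be compared. Its scaled counts were 14967, 8383 and 13354 in the sham group, 11792, 9664 and 9356 in the 2 Gy day 3 group and 11724, 9211 and 8949 in the 2 Gy day 7 group. In the 9 Gy groups they were 1097, 1037 and 5059 at day 3 and 1098, 913 and 3243 at day 7. All 6 of the 9 Gy samples were below all 9 others, with replicate 3 of each 9 Gy group nearest to them. The log2 fold change was -2.35 ± 0.58 (SE, edgeR adjusted p = 0.00461) at day 3 and -2.80 ± 0.59 (edgeR adjusted p = 0.00112) at day 7, or 5.08-fold and 6.99-fold lower than with sham EVs. The size rested on the scaling, and under 5 others the day 3 value ranged from -2.17 to -1.41 and the day 7 value from -2.63 to -1.80, the smallest with total counts. Without replicate 3 of the group in question the change was -3.52 at day 3 and -3.60 at day 7. The day 3 call of Il1rn was lost when the samples with conflicting day labels were left out (-1.27, adjusted p = 0.139) or placed at day 7 (-1.27, adjusted p = 0.129), which left replicate 3 as the only day 3 sample, assumed to vary like the other groups.

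Il1rap encodes the receptor accessory chain and was measured at low counts. Scaled counts were 20.8, 43.1 and 29.4 in the sham group, 22.0, 34.0 and 31.4 in the 2 Gy day 3 group and 22.2, 34.2 and 32.6 in the 2 Gy day 7 group. With 9 Gy EVs they were 35.6, 60.1 and 46.2 at day 3, from raw counts of 6, 15 and 14, and 36.4, 46.6 and 29.7 at day 7. The 9 Gy day 3 samples, at 35.6 or more, lay above all 2 Gy samples, which reached 34.2, and overlapped the sham group, and the 9 Gy day 7 group overlapped every other group. Against sham EVs its log2 fold change was 0.62 ± 0.35 (SE, edgeR adjusted p = 0.145) at day 3 and 0.26 ± 0.27 (edgeR adjusted p = 0.414) at day 7, neither of which was called. Without sham replicate 2 the day 3 value was called (0.93, adjusted p = 0.0393). With TMM scaling both were called, at 1.10 (adjusted p = 0.0176) and 0.75 (adjusted p = 0.0261).

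Casp1 encodes caspase-1. Its scaled counts were 401, 269 and 442 in the sham group, 344, 356 and 331 in the 2 Gy day 3 group and 375, 335 and 294 in the 2 Gy day 7 group. With 9 Gy EVs they were 290, 204 and 238 at day 3 and 254, 323 and 273 at day 7. Replicate 2 of the sham group lay inside the 9 Gy range, so the groups overlapped. The log2 fold change against sham EVs was -0.61 ± 0.20 (SE, edgeR adjusted p = 0.0187) at day 3 and was called, whereas -0.39 ± 0.18 (edgeR adjusted p = 0.0805) at day 7 was not. The Casp1 call at day 3 was lost without replicate 2 of its own group (adjusted p = 0.0889), without sham replicate 1 (adjusted p = 0.0575) and without sham replicate 3 (adjusted p = 0.0815), and without sham replicate 2 the day 7 value was called (-0.57, adjusted p = 0.00857). It was also lost under each of 5 other scalings (adjusted p = 0.0854 to 0.715). With total counts the direction turned, to 0.40 at day 3 and to 0.72 at day 7, where Casp1 was called higher (adjusted p = 0.00958). At day 7 it was also above 0, without a call, with the median of the tested genes, TMM and DESeq2 size factors (0.0948 to 0.13).

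**Figure D2:**
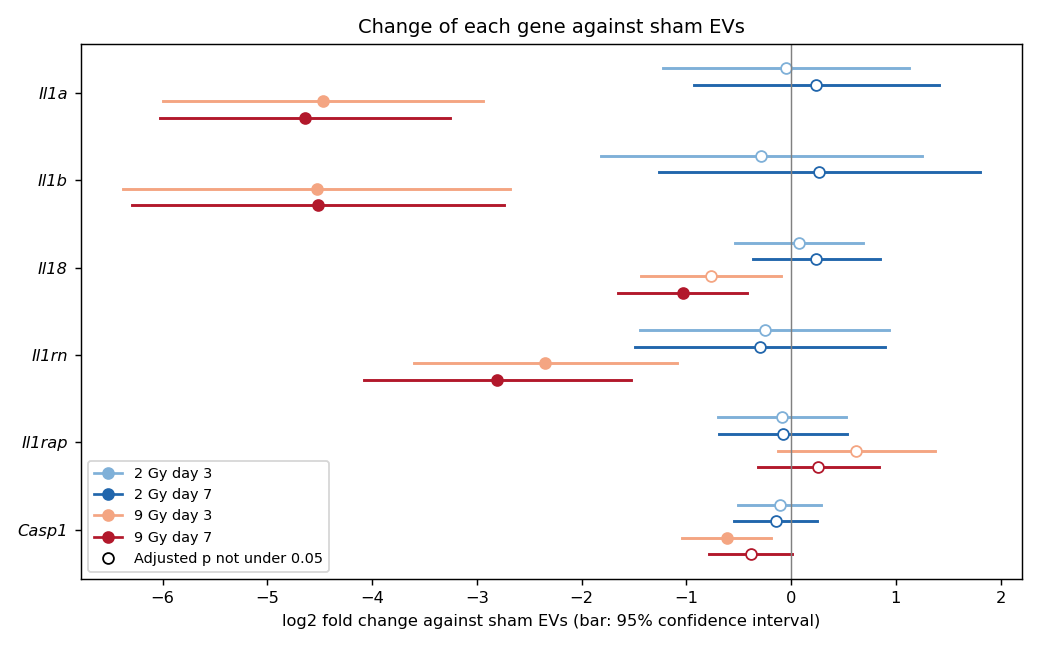
The log2 fold change of each gene against sham EVs (x axis) with its 95% confidence interval from edgeR, n = 3 samples per group, with open symbols where the adjusted p was not under 0.05. The intervals of Il1a, Il1b and Il1rn lay wholly below 0 for both 9 Gy groups and crossed 0 for both 2 Gy groups.

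To see whether EVs from the lower dose changed the same genes, both 2 Gy groups were compared with sham EVs. At 2 Gy day 3, 0 of the 6 genes were called, and 0% of all genes tested were called, while 7 genes of the panel had an unadjusted p under 0.05. At 2 Gy day 7 the count was again 0 of 6 with 0% of all genes tested, and 1 gene had an unadjusted p under 0.05. Il1b had a log2 fold change of -0.28 (95% interval -1.81 to 1.25) at day 3 and 0.27 (-1.26 to 1.80) at day 7, so sizable changes in either direction were not detectable at this spread. For Casp1 the intervals were narrower, -0.50 to 0.28 at day 3 and -0.54 to 0.25 at day 7. The log2 fold changes of the remaining genes lay between -0.30 for Il1rn at day 7 and 0.24 for Il18 at day 7.

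The 9 samples without 9 Gy EVs did not vary evenly among themselves. For Il18, 5 of them had scaled counts of 411 to 461, namely sham replicate 2 and replicates 2 and 3 of both 2 Gy groups. The other 4, sham replicates 1 and 3 and replicate 1 of both 2 Gy groups, had 252 to 327. The same 5 samples were the highest for Il1rap, at 31.4 to 43.1 against 20.8 to 29.4, and the lowest for Il1rn, at 8383 to 9664 against 11724 to 14967. This division was read from the Il18 values and is given as a description. Il1a did not follow it, and Il1b and Casp1 followed it in part. Total counts were 670882 to 837995 in the 5 samples and 568097 to 730460 in the other 4, and their part in this order was not tested.

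The doses were also compared directly, with the sham samples entering only through the shared estimate of the spread. Between 9 Gy and 2 Gy EVs, both days together, 5 of 6 genes were called lower, against 52% of all genes tested, and 1 of 6 was called higher, against 15.6%. Over all genes this was 140 lower and 42 higher, but 80 and 89 with TMM scaling and 36 and 168 with total counts. Il1a was lower by 4.65 ± 0.48 on the log2 scale (a log2 fold change of -4.65, edgeR adjusted p = 1.26e-06), with 16.0 to 114 scaled counts against 1025 to 1617. Il1b had a log2 fold change of -4.52 ± 0.60 (edgeR adjusted p = 1.51e-05), and Il1rn of -2.30 ± 0.41 (edgeR adjusted p = 0.00025). In these 3 genes no 9 Gy sample overlapped a 2 Gy sample, but how many of all genes tested were likewise apart was not counted. With total counts the values were smaller, at -3.59, -3.48 and -1.25. Without replicate 3 of both 9 Gy groups their values were -6.08 for Il1a, -6.20 for Il1b and -3.29 for Il1rn. The day 3 part of these rests on raw counts of 5 and 4 for Il1a and 9 and 12 for Il1b. Il18 had a log2 fold change of -1.06 ± 0.21 (edgeR adjusted p = 0.000576), with overlapping groups. Casp1, at -0.37 ± 0.13 (edgeR adjusted p = 0.0247), was called lower, but turned to 0.0845 with TMM scaling, 0.104 with the median of the tested genes and 0.0701 with DESeq2 size factors. With total counts Casp1 was called higher, at 0.77 (edgeR adjusted p = 0.000557). The Casp1 call was also lost without replicate 2 of 9 Gy day 3, replicate 1 of 9 Gy day 7 or replicate 1 of 2 Gy day 7 (adjusted p = 0.0542 to 0.0695). Il1rap was the gene called higher, at 0.53 ± 0.22 (edgeR adjusted p = 0.0476), but the groups overlapped. This call was lost without the 9 Gy day 3 group (0.35, adjusted p = 0.219) and when 1 of 9 samples was left out, namely replicate 2 or 3 of 9 Gy day 3, replicate 1 or 2 of 9 Gy day 7, replicate 1 or 3 of either 2 Gy group, or sham replicate 3 (adjusted p = 0.0531 to 0.157). Same-numbered samples of both days deviated together within a dose, and in a limma fit with that number as a random replicate block, added after the data had been seen, Casp1 (adjusted p = 0.12) and Il1rap (adjusted p = 0.0953) were not called. In that fit Il1a, Il1b, Il1rn and Il18 were called lower (adjusted p = 1.68e-06 to 0.00157).

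**Figure D3:**
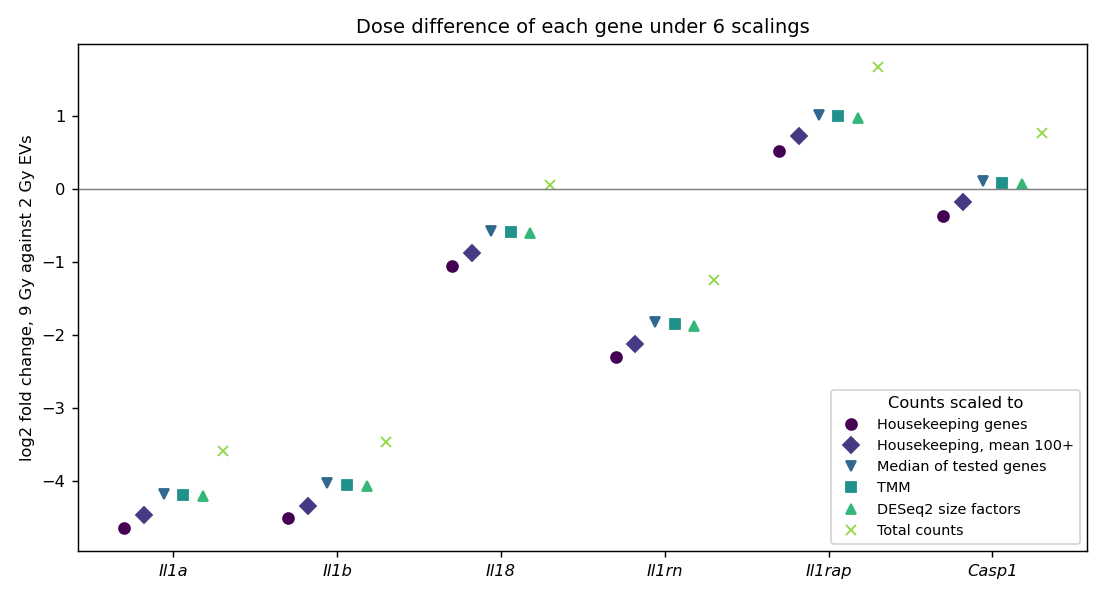
The log2 fold change of each gene between 9 Gy and 2 Gy EVs, 6 samples against 6, when counts are scaled in 6 ways. Il1a, Il1b and Il1rn lay below 0 and Il1rap above 0 under every scaling, whereas Il18 reached 0.05 and Casp1 0.77 with total counts.

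The ratio of the counts of 2 genes within 1 sample does not depend on the scaling. The level of a ratio depends on both probes, so only its change between groups is read. For Il1b over Il1rn, agonist over antagonist, the log2 ratio was -4.36, -4.43 and -3.70 at 9 Gy day 3 and -4.07, -4.20 and -3.00 at 9 Gy day 7. In the 2 Gy groups it was -2.23, -1.44 and -1.32 at day 3 and -1.87, -0.73 and -0.67 at day 7, and in the sham group -1.98, -0.71 and -2.13. All 6 samples with 9 Gy EVs were lower than all 9 others. Between 9 Gy and 2 Gy EVs the mean log2 ratio differed by -2.59 (two-sided exact permutation test, 6 against 6, p = 0.00216, the smallest 6 against 6 can give, adjusted p = 0.0027 over 5 ratios). That test takes the 12 samples as independent, although same-numbered samples of both days deviated together within each dose. With both days averaged per number the exact permutation test, 3 against 3, gave p = 0.1, the smallest that size allows. Il1b was thus lower relative to Il1rn, although Il1rn itself was lower.

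Il1a over Il1b had a mean log2 ratio of -1.56 ± 0.41 (SD, n = 6) with 9 Gy EVs and -1.54 ± 0.25 with 2 Gy EVs. The difference of -0.03 was within the spread of the samples (two-sided exact permutation test, p = 0.885). Il1b over Casp1 was lower by 4.84 on the log2 scale with 9 Gy EVs (difference -4.84), Il1b over Il18 had a difference of -4.12 and Il1rn over Il18 of -1.53, each with no overlap between the doses and an exact permutation p = 0.00216 (adjusted p = 0.0027). For Il1rn over Il18 the gap was narrow, with 4.2958 as the highest 9 Gy and 4.32 as the lowest 2 Gy value. The lowest sham value of that ratio, 4.2957, overlapped the 9 Gy range. With both days averaged per replicate number, 3 against 3, each of these 3 differences likewise had an exact permutation p = 0.1, so none could pass the threshold.

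**Figure D4:**
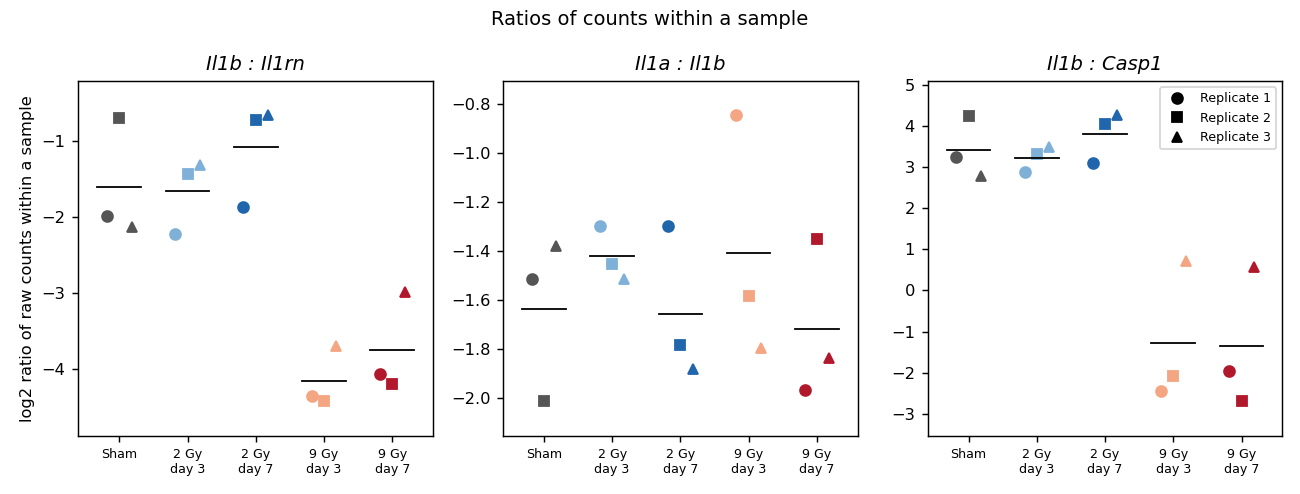
The log2 ratio of raw counts of 2 genes in the same sample for Il1b over Il1rn, Il1a over Il1b and Il1b over Casp1, by EV group, with symbols for the replicate number and lines for the mean of 3 samples. Il1b was lower relative to Il1rn and to Casp1 in all 6 samples with 9 Gy EVs, and the ratio of Il1a to Il1b overlapped in all groups.

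Within both 9 Gy groups, replicate 3 stood above replicates 1 and 2 for Il1a, Il1b and Il1rn. For Il1b it exceeded their mean by 2.92 on the log2 scale at day 3 and 2.81 at day 7, the first rank of 269 by the smaller of both values. Il1a, with 2.31 and 2.59, was at rank 2, and Il1rn, with 2.25 and 1.69, at rank 4. Il18 had smaller differences of 0.60 and 0.92. Casp1 differed from the mean of the other replicates by -0.03 and -0.07, and Il1rap differed by 0.00 and -0.46. Over all genes tested the median difference was 0.06 at day 3 and 0.08 at day 7, and 12 of 269 genes (4.46%) were over 1 at both days.

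The genes outside the family with the most similar replicate pattern were Socs3, a feedback inhibitor of cytokine receptors, with 2.50 and 1.94 (raw counts of 2, 4 and 25 at day 3), Ccl7 (1.62 and 2.15) and Ccl2 (1.59 and 1.98), both monocyte chemokines. They were followed by Cfb, which encodes complement factor B, and Hamp, which encodes hepcidin, each over 1 at both days. Their raw counts at day 3 were 3, 2 and 12 for Cfb and 2, 1 and 6 for Hamp, near the lowest value of 1 in the data. The day 3 differences of Socs3, Cfb and Hamp therefore start from counts that were not shown to be above background. The same holds for Il1a, with 5 and 4 counts in replicates 1 and 2, and for Il1b, with 9 and 12. Reference LPS-induced genes did not share the pattern to this extent. Il6 had differences of 0.54 and 0.54 although it lay at 23.7 to 47.5 scaled counts with 9 Gy EVs against 1761 to 3376 with sham EVs, from raw counts of 4, 9 and 13 at day 3. Tnf had differences of -0.95 and -0.50. The inhibitor gene Nfkbia had 0.34 and 0.03.

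**Figure D5:**
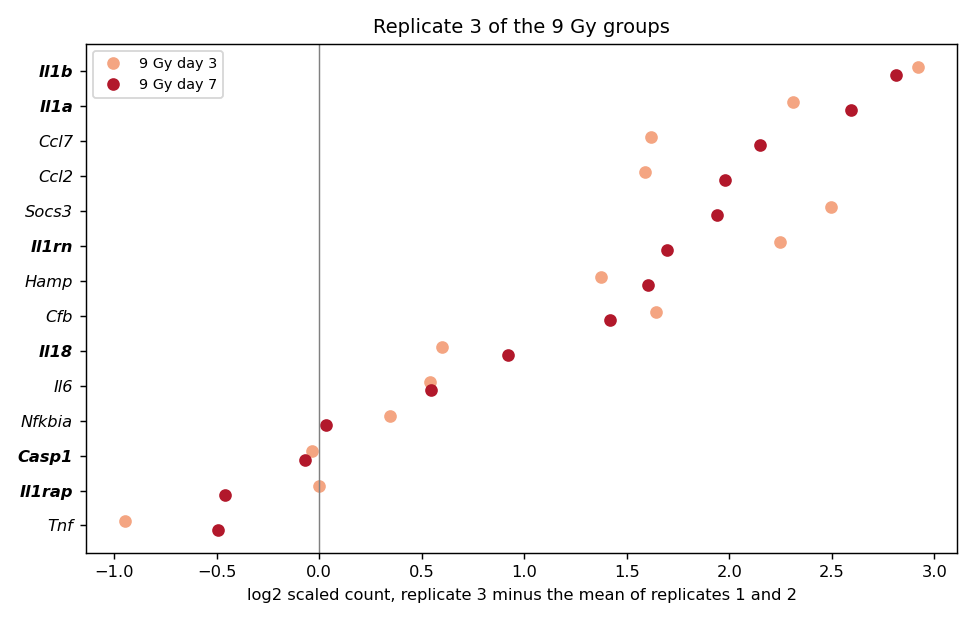
Difference of replicate 3 from the mean of replicates 1 and 2 in log2 scaled counts (x axis) for the 2 groups with 9 Gy EVs, with the IL-1 family genes and Casp1 in bold. Il1b had the largest difference at both days among the genes shown, whereas Casp1 lay near 0 and Tnf below it.

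Whether the day of EV collection mattered was asked within each dose. Between 9 Gy day 7 and day 3, 0 of 6 genes and 0% of all genes tested were called, with 6 genes of the panel at an unadjusted p under 0.05. Il1b differed by 0.01 ± 0.79 (SE), with a 95% interval of -1.68 to 1.70. It rested on replicate 3 of each group, and was 1.79 without that of day 3 and -1.60 without that of day 7. Il1a moved likewise, to 1.21 and -1.65, and none of these values was called. The values without replicate 3 of day 3 rest on day 3 raw counts of 9 and 12 for Il1b and 5 and 4 for Il1a. Between 2 Gy day 7 and day 3 the count was also 0 of 6 with 0% of all genes, and 4 genes had an unadjusted p under 0.05. A test of whether the dose difference changed with the day called 0 of 6 genes and 0% of all genes (4 at an unadjusted p under 0.05).

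Same-numbered samples of both 2 Gy groups deviated together (correlations of 0.397 to 0.783), but replicates 2 and 3 were not told apart by it, since they correlated as closely across numbers (0.394 and 0.616). With these 6 samples alone and the replicate number as a replicate block, 2 of 6 genes were called higher at 2 Gy day 7 than at 2 Gy day 3, against 9.29% of the 280 genes tested in that fit, and 0 lower, against 1.07%. Il1b was higher in each of 3 numbered pairs, from 2522 to 3214, from 3560 to 5565 and from 3745 to 5642 scaled counts, with a log2 fold change of 0.53 ± 0.06 (SE, edgeR adjusted p = 0.000385). Il1a also was higher in each of the 3 pairs, from 1025 to 1306, from 1300 to 1617 and from 1311 to 1530, with 0.29 ± 0.06 (edgeR adjusted p = 0.0132). Il1rn, at -0.05 ± 0.04 (edgeR adjusted p = 0.519), and Casp1, at -0.04 ± 0.08 (edgeR adjusted p = 0.803), were not called. This fit was added after the data had been seen.

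Other genes of the pathway were taken from lists. Of 15 further IL-1 family ligands, receptors and decoys, 8 had a row and 2 passed the filter, and the 6 others had at most 20 raw counts in any sample. Among them were Il1r1, the signalling IL-1 receptor, at 13 counts or fewer, and the decoy receptor Il1r2, at 20 or fewer. The 2 tested were Il18rap and Il1rl1. Il18rap was called at neither 9 Gy day (log2 fold changes of 0.52 and -0.43), though it was called higher at day 3 with total counts. Il1rl1, which encodes the IL-33 receptor, was called higher at both days, 1 of 2 beside 11.2% and 11.9% of all genes tested. It had a mean of 20.2 ± 5.93 scaled counts (SD, n = 3) for sham EVs, 53.3 ± 20.6 at day 3 and 39.9 ± 3.44 at day 7. Its log2 fold change was 1.31 ± 0.33 (SE, edgeR adjusted p = 0.00461) and 0.96 ± 0.26 (edgeR adjusted p = 0.00519), and it was called higher under each of 5 other scalings. The day 3 value came from raw counts of 10 to 13.

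Of 20 adaptors, kinases and brakes of IL-1 receptor and Toll-like receptor signaling, 12 were tested. At 9 Gy day 3, 3 were lower and 1 higher, against 41.3% and 11.2% of all genes tested, and at day 7, 6 were lower and 0 higher, against 49.1% and 11.9%. With TMM scaling 1 was lower and 3 were higher at each day. Tollip, an adaptor that restrains IL-1 receptor signaling, fell on the log2 scale, with -2.11 at day 3 (edgeR adjusted p = 3.97e-07) and -1.97 at day 7 (edgeR adjusted p = 2.86e-07), and was called lower under each of 5 other scalings. Irak4, the proximal kinase, was called higher at day 3 with 0.87 ± 0.23 (edgeR adjusted p = 0.0117), from raw counts of 7 to 15. At day 7 it had 0.33 ± 0.18 (edgeR adjusted p = 0.136). Under each of 5 other scalings Irak4 was called higher at both days (at day 7 from 0.53, adjusted p = 0.0252, to 1.44, adjusted p = 4.36e-05). The smaller differences of this list turned with the scaling. Irak2 was called lower at both days, with -0.42 and -0.38, but had 0.05 and 0.11 with TMM scaling. With total counts Irak2 was called higher at both days, with 0.61 (edgeR adjusted p = 0.00398) and 0.73 (edgeR adjusted p = 0.000575). Tnfaip3, which encodes the NF-κB brake A20, had -0.81 and -0.74, both called, and -0.34 and -0.26 with TMM scaling, neither called, and was above 0 with total counts.

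Of 10 NF-κB subunits and inhibitors, 7 were tested, and 2 were lower and 1 higher at 9 Gy day 3, with 2 lower and 0 higher at day 7, beside the same shares of all genes. With TMM scaling 2 were lower and 3 higher at each day, the latter Nfkb1, Rela and Relb. Nfkb2, the precursor of the p52 subunit, fell on the log2 scale, with -2.30 at day 3 (edgeR adjusted p = 4.11e-07) and -2.06 at day 7 (edgeR adjusted p = 6.6e-07), and was lower under each of 5 other scalings. Nfkbia, which encodes the inhibitor IκBα, fell, with -0.89 and -0.94 (edgeR adjusted p = 0.000212 and 8.65e-05), but had 0.11 and 0.17 with total counts. Rela was called higher at day 3, with 0.55 ± 0.21 (edgeR adjusted p = 0.0397), and had 0.24 ± 0.18 at day 7, where it was called higher under each of 5 other scalings (adjusted p = 8.13e-05 to 0.0447). Of 5 genes of LPS recognition 4 were tested, and Cd14 and Ly96, which encode the co-receptor and the partner of Toll-like receptor 4, were called lower at both days, 2 of 4 beside 41.3% and 49.1% of all genes. With TMM scaling none of these calls remained, Tlr2 was called higher at both days and Tlr4 at day 7 (0.46, adjusted p = 0.0402). Cd14 had -1.20 (edgeR adjusted p = 0.011) and -1.34 (edgeR adjusted p = 0.00455), but -0.73 (adjusted p = 0.112) and -0.86 (adjusted p = 0.0507) with TMM scaling. Ly96 had -1.11 (edgeR adjusted p = 0.0327) and -0.99 (edgeR adjusted p = 0.0127), but -0.63 (adjusted p = 0.236) and -0.51 (adjusted p = 0.186) with TMM scaling, and 0.13 at day 7 with total counts. The raw counts of Ly96 at 9 Gy day 3 were 1 to 17, where 1 is the lowest value in the data. Of 27 further inflammasome, NOD-type sensor and caspase genes, 4 were tested. At 9 Gy day 3, 0 of 4 were called lower, against 41.3% of all genes tested, and at day 7 1 of 4, against 49.1%. That gene was Card9, lower by 0.69 (a log2 fold change of -0.69, edgeR adjusted p = 0.0105), with -0.20 and no call under TMM scaling.

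The genes whose log2 scaled counts followed each gene most closely over the 15 samples are given as a description, since all points share the separation of 9 Gy EVs from the rest and the same scaling. For Il1b they were Ccl9, a chemokine (Pearson r = 0.993), Plaur, the urokinase receptor (0.989), and Bst1 (0.986). For Il1a they were Ccl9 (0.988), Bst1 (0.985) and Tnfrsf1b, a TNF receptor (0.983). Il1rn went most closely with Tnfrsf1b (0.983), Cebpb (0.982) and Ifngr2 (0.979), and Il18 with Cd9 (0.976) and Lilrb4 (0.971). Il1rap had no gene above 0.833, the value for Rela, and Casp1 none above 0.891, the value for Ube2l3.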

How the data were processed

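Panel counts from the nanoString nCounter instrument were read for 15 samples, 5 groups of 3 by title. The authors deposited raw counts as whole numbers for 561 genes, with 1 as the lowest value and without control probes, so no background was subtracted. They normalized in nSolver v4.0 for their own comparisons, with settings not given in the sources used here. Members and gene lists were chosen with earlier results of these data known. All 8 members were to be named, other genes by their list (those called most often against sham EVs), by correlation with a member, or by their likeness to Il1b in replicate 3.

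Each sample was scaled by the geometric mean of its 14 housekeeping genes, and 269 genes passed a minimum mean of 20 counts and were tested (6 of the 6 members with a row). The 5 groups were fitted together by quasi-likelihood in edgeR 4.0.16 under R 4.3.3 (prior count 0.125), with Benjamini-Hochberg adjustment over the genes tested and a threshold of 0.05. The SE is the absolute log2 fold change divided by the square root of F. The procedure was tested on simulated data. Ratios were compared by exact permutation (scipy 1.17.1). Total counts were 43176 to 87899 for 9 Gy day 3 and 453178 to 837995 elsewhere. No pair of replicates was within sampling noise, but some were much closer than others. Chi-square over degrees of freedom was 2.04 for replicates 2 and 3 of 2 Gy day 3. It was 2.89 for replicates 1 and 2 of 9 Gy day 3 and 4.36 for replicates 2 and 3 of 2 Gy day 7. All other pairs had 17.2 to 192. Same-numbered samples deviated together between the 2 Gy groups (correlations 0.397 to 0.783) and between the 9 Gy groups (0.354 to 0.733), but not for other pairs of groups, with different numbers as close in some pairs, and the pairing comes from the labels' numbers alone. Alternatives were 5 other scalings, other filters and prior counts, DESeq2 1.42.0, limma 3.58.1, the replicate block, limma with the number within a dose as a random block, both treatments of the conflicting day labels, and leaving out each sample. Promoter sequences and positions came from RefSeq tables for GRCm38.p6.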

Additional observations from a re-analysis of the deposited data

Results flagged for a closer look

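The Il1a values at day 7 lay on opposite sides of the sham mean for the 2 doses. All 3 samples with 2 Gy day 7 EVs (1306, 1617 and 1530 scaled counts) were above the sham mean of 1255, and all 3 samples with 9 Gy day 7 EVs (16.7, 19.5 and 114) were below it. The difference between the groups' mean changes, 9 Gy minus 2 Gy, was -5.47 on the log2 scale computed from the mean of the log2 values. This difference at day 7 was not tested as such, and the 2 Gy day 7 change alone was 0.24 ± 0.55 (SE) and was not called. The lowest 2 Gy day 7 value, 1306, lay below sham replicate 1 at 1323, so those groups overlapped.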

How the results depend on the processing

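Il1a, Il1b and Il1rn kept their direction for 9 Gy EVs against sham EVs and between doses under every alternative run, and their calls too, except Il1rn at 9 Gy day 3 with the conflicting day labels moved or left out. With those labels placed at day 7, or those samples left out, 2 of 6 genes (Il1a and Il1b) were called at 9 Gy day 3 in place of 4, while calls over all genes went from 141 to 74 and 79. Both settings leave 1 sample in that group, assumed to vary like the others, so they say little about its calls. With counts under 20 set to 20, 1 of 6 genes was called between 9 Gy day 7 and day 3, Casp1 at 0.61 (adjusted p = 0.0166), among 99 genes of the panel. The replicate block on the 2 Gy groups alone called 2 genes, Il1a and Il1b, in place of 0 between the days, and changed no other member count by over 1.5 times. Scaling to total counts turned Casp1 to 0.40 and 0.72 at 9 Gy day 3 and day 7 and to 0.77 between doses, and Il18 to 0.0352 at day 7 and 0.0532 between doses. With that scaling Casp1 was called higher at day 7 and between doses. Casp1 between doses was also turned by the median of the tested genes (0.104), TMM (0.0845) and DESeq2 size factors (0.0701). The scaling moved the median of all genes at 9 Gy day 3 from -0.46 to 0.01 with TMM and 0.56 with total counts. At 9 Gy day 7 it gave 132 lower and 32 higher calls by housekeeping genes, 76 and 75 by TMM and 31 and 143 by total counts. Among 1504 alternative values of single genes, 28 gained a call, 39 lost one and 8 changed sign with a call on at least one side, and the sign differed in 51 in all. Of 85 ratio alternatives 4 lost the call, all from averaging both days per number, a 3 against 3 test that cannot pass the threshold. In 9 Gy day 3, raw counts of 4 to 34 limit Il1a, of 9 to 118 limit Il1b and of 6 to 15 limit Il1rap.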
